A study of Arabidopsis lyrata subsp. lyrata and Arabidopsis thaliana with 7 samples.

Results

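Argonaute proteins are the effectors of RNA silencing: each binds a small RNA and is guided by it to complementary transcripts. The family members were the gene models of *Arabidopsis lyrata* whose listed *A. thaliana* ortholog was one of the 10 *A. thaliana* Argonaute genes, AGO1 to AGO10. Of the 32793 gene models in the *A. lyrata* table, 9 were such members, and all 10 genes were present among the 32678 of the *A. thaliana* table. AGO3 (AT1G31290) had no paired *A. lyrata* model, and it is described from the *A. thaliana* libraries alone. The libraries held poly-A RNA of untreated *A. lyrata* MN47, with 2 rosette libraries, 1 library of shoot apices dissected free of leaves and 2 of inflorescences cut from the main stem, and of untreated *A. thaliana* Col-0, with 2 rosette libraries. All plants grew in soil with 16 h of light and 8 h of dark. The labels give 21°C, and for MN47 the study's methods give it for the light period, with 16°C in the dark. Rosettes and apices were taken from young vegetative plants. Nothing in the labels says whether 2 libraries of a tissue came from separate plants, so the p values measure only the spread between these libraries. In such bulk samples, fewer cells of a type and less RNA per cell cannot be told apart. The paper lists shorter reads for its inflorescence libraries than for its shoot apex and untreated rosette libraries. In comparisons with inflorescences, tissue and read length therefore cannot be told apart.

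The *A. thaliana* family falls into 3 clades. AGO1, AGO5 and AGO10 form the first. AGO1 is the main effector of microRNAs (miRNAs), and AGO10 (ZWILLE, PINHEAD) captures miR165 and miR166 and so keeps them from their targets in the shoot meristem. AGO2, AGO3 and AGO7 form the second, in which AGO2 is known for defence against viruses and AGO7 (ZIPPY) binds miR390 to start the formation of trans-acting small interfering RNAs (siRNAs) that target auxin response factors. AGO4, AGO6, AGO8 and AGO9 form the third and act, as far as they are functional, with siRNAs of repeats in RNA-directed DNA methylation. AGO9 is known from the ovule, where it limits the number of cells that enter the female germline.

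Members of the family are themselves targets of miRNAs in *A. thaliana*. The mature miRNAs are shown because each faces a site in a member whose counts are given here. They were read from the TAIR10.1 assembly of *A. thaliana* with the RefSeq annotation, 5′ to 3′ in DNA letters, and capitals mark the seed (bases 2 to 8).
miR168a, chr4:10578652-10578672, plus strand: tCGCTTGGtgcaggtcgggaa
miR403, chr2:19415154-19415174, plus strand: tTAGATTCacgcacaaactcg
The best facing sites in *A. thaliana* member transcripts follow, with capitals for the bases that face the seed.
AGO1, faces miR168a, chr1:17891529-17891549, minus strand: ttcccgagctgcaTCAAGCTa
AGO2, faces miR403, chr1:11185223-11185243, plus strand: ggagtttgtgcgtGAATCTAa
AGO3, faces miR403, chr1:11192399-11192419, plus strand: gatgtttgtgcgtGAATCTAa
The AGO1 site lies in the coding region and has 3 mismatches to miR168a, counting 1 G:U pair, and 2 of the 3 face the seed. The AGO2 and AGO3 sites lie in the 3′ UTR, with 1 and 3 mismatches to miR403, none of them facing the seed. Among 27440 *A. thaliana* genes scanned over the sense strand of a transcript, 1 gene (0.00364%) had a site for miR168a with at most 3 mismatches, and 2 genes (0.00729%) had one for miR403. These were the members shown. With at most 4 mismatches the numbers were 6 genes (0.0219%) and 8 genes (0.0292%), of which 1 and 2 were members. A match of letters is a description of the sequence and not a measured cleavage. In the other members the best facing stretch had at least 6 mismatches to either miRNA.

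The libraries held 10556736 to 28347972 reads counted in gene models. Levels in *A. lyrata* are given as CPM, counts scaled to the library total after correction by TMM, unless stated otherwise. TMM sets the bulk of genes equal between libraries. CPM of the *A. thaliana* libraries, markers included, are scaled to the plain library total without TMM. A count of 3 reads corresponded to 0.0945 to 0.311 CPM in the *A. lyrata* libraries, and these floors, like the intervals given with single ratios, describe counting error alone. The tissue labels were checked against markers. Summed leaf markers (4 of 5 with a model) were at 31960 and 42050 CPM in rosettes and at 1637 to 2862 CPM in the other tissues. The 5 flower markers summed to 1132 and 1235 CPM in inflorescences, against 0.727 to 6.14 CPM in rosettes and apex. The shoot meristem regulator STM was at 42.2 CPM in the apex and at 38.2 and 39.7 CPM in inflorescences. WUS and CLV3, which mark the meristem centre, had 2 and 3 reads in the apex. In inflorescences WUS had 194 and 265 reads and CLV3 had 0 and 1. Summed apex markers, at 115 CPM in the apex and 99.7 and 103 CPM in inflorescences, thus did not set these tissues apart. The 2 rosette libraries stood apart from each other in the markers of dividing and meristem tissue: rosette replicate 1 had 118 CPM of the 6 cell cycle markers and 5.45 CPM of the 5 apex markers, and replicate 2 had 54.8 and 1.04 CPM. STM and KNAT1 were at 0 in replicate 2 alone and WUS and CLV3 in both, while CUC2 was at 0.605 CPM in replicate 1 and 1.04 CPM in replicate 2. Flower markers differed likewise, at 6.14 and 0.727 CPM, with AP1 and AP3 at 0 in both. These differences are given beside the members that moved with them, and their part in those results was not tested.

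All 9 paired models were predicted by Augustus, listed a single ortholog, overlapped no other model and were not annotated as transposable elements. Their coding length was within 0.995 to 1.01 of that of the *A. thaliana* gene. The family has 2 forms of gene structure: AGO2 (AL1G48480, paired with AT1G31280) and AGO7 (AL2G27160, AT1G69440) had 3 exons each, and the other 7 models had 20 to 23. Positions are those of the deposited version-2 annotation on the *A. lyrata* scaffolds. AGO1 was AL1G53570 (AT1G48410, scaffold 1, 24571450 to 24578094, minus strand), the single member with 3 transcripts, and AGO9 was AL6G32190 (AT5G21150, scaffold 6, 9003067 to 9009511, plus strand). AGO8 (AL6G32030, AT5G21030) lay on the same scaffold, at 8921451 to 8926124 on the minus strand. AGO4 (AL4G19870, AT2G27040), AGO5 (AL4G21580, AT2G27880) and AGO6 (AL4G27330, AT2G32940) lay on scaffold 4, starting at 10787022, 12286930 and 15594738. AGO10 was AL8G16010 (AT5G43810) on scaffold 8, from 3956234 to 3962192.

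The first comparison asked how the family differs between *A. lyrata* tissues. The germline Argonaute AGO9 and the AGO1-clade member AGO5 were far higher in inflorescences than in rosettes, and AGO2 was moderately higher. Together the family took 0.101% and 0.0993% of counted reads in inflorescences, 0.0985% in the apex and 0.0399% and 0.0251% in rosettes. Of the 8 members that passed the low-count filter, 3 were higher in inflorescences and 0 lower, by edgeR's quasi-likelihood test with a Benjamini-Hochberg adjusted p under 0.05 over all 25465 models tested. Of all models, 34.3% were called in this comparison, 17.6% as higher and 16.7% as lower. The median log2 fold change was 1.00 over the 8 members and 0.09 over all models. Without TMM the median of all models moved to 0.68, and the share of called models that were higher went from 51.3% to 77.5%.

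**Figure D1:**
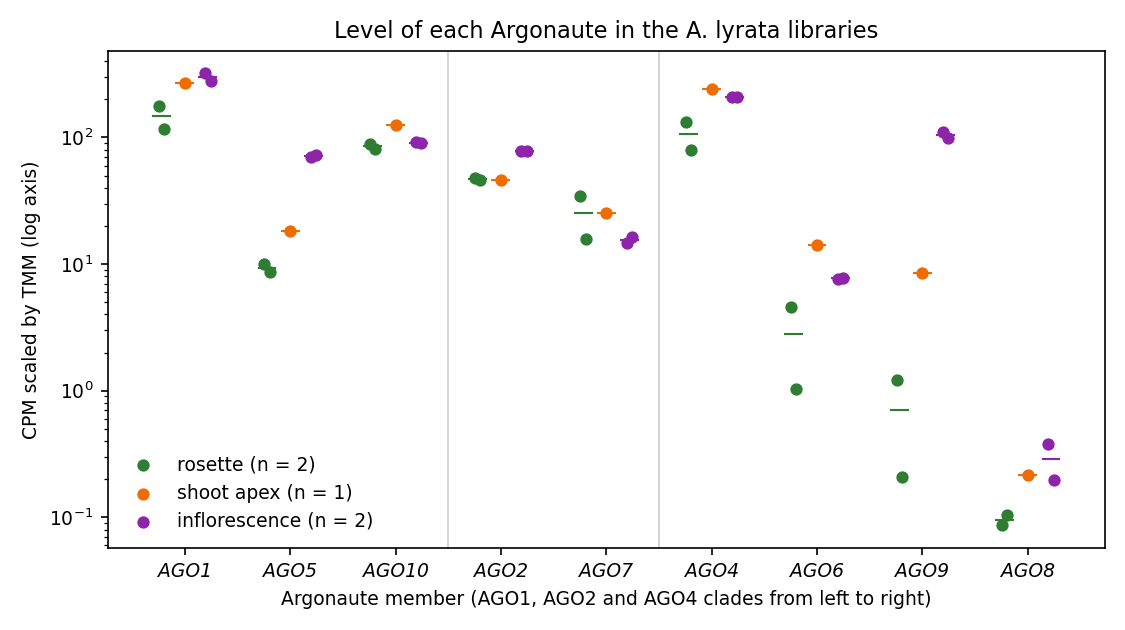
CPM scaled by TMM (log axis) of the 9 paired Argonaute models in the 5 *A. lyrata* libraries. Points are libraries (rosette, shoot apex and inflorescence by colour), short lines are group means, and vertical lines separate the AGO1, AGO2 and AGO4 clades. AGO9 runs from 0.208 CPM in a rosette to 110 CPM in an inflorescence, while AGO10 stays between 81.6 and 125 CPM.

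Rosettes gave 14 and 2 reads of AGO9, the apex 118, and the inflorescences 3503 and 2982. Its levels were 1.21 and 0.208 CPM, 8.47 CPM, and 110 and 98.1 CPM. The 3 tissues did not overlap, and the apex lay between the other two. AGO9 was higher in inflorescences than in rosettes by a log2 fold change of 7.12 ± 0.63 (SE, n = 2 and 2, edgeR adjusted p = 0.00384), a larger value than in 93.6% of tested models. A ratio of the summed counts, 6485 reads against 16, was 138 with a 95% counting interval of 85.0 to 242. The size rested on the rosette used: the log2 fold change was 8.93 without rosette replicate 1 and 6.42 without replicate 2. Rosette replicate 1, which was 5.83 times as high as replicate 2 in AGO9, was also 8.45 times as high in summed flower markers and 5.25 times as high in summed apex markers. These sums rested mostly on single genes. In replicate 1, SEP3 was at 5.36 of the 6.14 CPM of flower markers and KNAT1 at 3.98 of the 5.45 CPM of apex markers. CUC2 went the other way, at 0.605 CPM in replicate 1 and 1.04 CPM in replicate 2.

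AGO9 was also higher in inflorescences than in the apex, by 3.62 ± 0.66 on the log2 scale (n = 2 and 1, edgeR adjusted p = 0.0417). This call was lost with library totals in place of TMM (edgeR adjusted p = 0.0518). With a replicate left out the value was 3.47 to 3.64. Without inflorescence replicate 1 or 2 no model at all passed in this comparison, so those fits cannot decide on the AGO9 call. The single apex library was assumed to vary like the duplicates. The apex exceeded the rosettes by 3.51 ± 0.66, which did not pass after adjustment (edgeR adjusted p = 0.0535). The difference was 5.31 without rosette replicate 1 and 2.80 without replicate 2. Those fits hold no spread between rosettes, so they cannot decide on this call. Flower markers were at 0.79 CPM in the apex and pollen markers (3 of 4 with a model) at 0.502 CPM, both between the 2 rosettes (6.14 and 0.727 CPM for flower, 0.26 and 0.623 CPM for pollen). AP1 and AP3, at 0 in both rosettes, had 1 and 4 reads in the apex. Cell cycle markers were at 251 CPM in the apex, 118 and 54.8 CPM in rosettes, and 209 and 175 CPM in inflorescences. The 4 meiosis markers summed to 56.3 CPM in the apex, 20.9 and 13.4 CPM in rosettes, and 55.6 and 35.2 CPM in inflorescences. DMC1 was at 34.2 of the 56.3 CPM in the apex, against 15.1 and 10.7 CPM in rosettes. ASY1 was at 15.9 CPM in the apex against 1.47 and 0.623 CPM in rosettes, and SPO11-1 at 4.16 against 1.73 and 0.623 CPM. SDS was at 2.01 CPM in the apex against 2.59 and 1.45 CPM in rosettes. The part of these markers in the AGO9 values was not tested.

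AGO5 binds small RNAs that start with cytosine and in *A. thaliana* is known from reproductive tissue. It had 115 and 83 reads in rosettes, 253 in the apex, and 2209 and 2198 in inflorescences, or 9.95 and 8.62, 18.2, and 69.6 and 72.3 CPM. Replicates lay close together in both duplicated tissues, and no 2 tissues overlapped. Inflorescences exceeded rosettes by 2.93 ± 0.16 on the log2 scale, or 7.63-fold (n = 2 and 2, edgeR adjusted p = 0.00245). They exceeded the apex by 1.97 ± 0.20, or 3.90-fold (n = 2 and 1, edgeR adjusted p = 0.0140), and by 1.87 to 1.96 with a replicate left out. Without inflorescence replicate 1 or 2 the call was lost, as it was for every model in this comparison. Apex and rosette differed by 0.97 ± 0.19, which did not pass (edgeR adjusted p = 0.0555).

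AGO2 had 549 and 441 reads in rosettes, 637 in the apex and 2471 and 2386 in inflorescences, at 47.5 and 45.8, 45.7, and 77.8 and 78.5 CPM. The apex was at the level of the rosettes and both inflorescences stood above. The log2 fold change of inflorescence over rosette was 0.74 ± 0.14 (n = 2 and 2, edgeR adjusted p = 0.0201). It was 0.75 without inflorescence replicate 1 and 0.74 without replicate 2. The call was lost in those fits, where far fewer of all models passed, so the loss cannot be read as particular to AGO2. The apex was at −0.03 ± 0.17 against rosettes, a direction that turned with other scalings (0.76 without TMM and 0.02 with RLE factors), and inflorescence against apex was at 0.77 ± 0.17 (edgeR adjusted p = 0.0587). AGO2 was among the members least different between the 2 rosettes, at a ratio of 1.04.

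**Figure D2:**
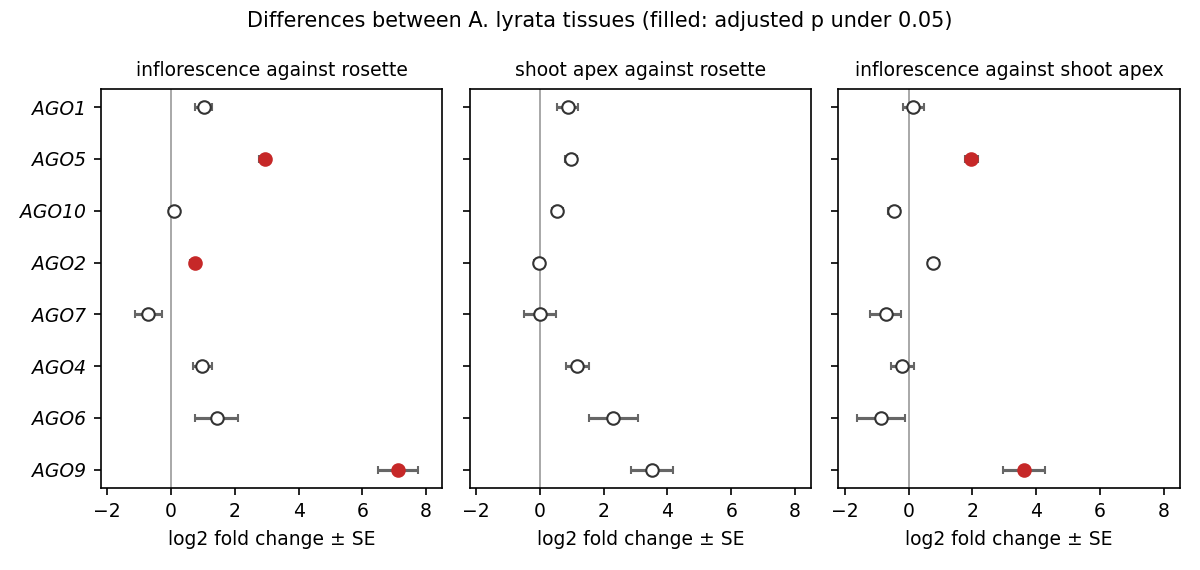
Log2 fold change of the 8 tested members (points) with its standard error (bars) in the 3 tissue comparisons, by edgeR. Filled points passed an adjusted p of 0.05: AGO5, AGO2 and AGO9 in inflorescence against rosette, AGO5 and AGO9 in inflorescence against shoot apex, and none in shoot apex against rosette.

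AGO1 and AGO4, the major members of the miRNA and DNA methylation branches, were at similar levels in apex and inflorescence and had lower values in both rosettes, a difference that did not pass the test. AGO1 had 179 and 116 CPM in rosettes, 269 in the apex and 321 and 278 in inflorescences. The rosettes were below the other 3 libraries but differed 1.54-fold between themselves. Inflorescence against rosette was 1.02 ± 0.28 on the log2 scale (n = 2 and 2, edgeR adjusted p = 0.0523, in a range of 0.00285 to 0.272 over its alternatives). Inflorescence against apex was 0.15 (adjusted p = 0.779), which turned to −0.06 without TMM. AGO4 had 133 and 78.9 CPM in rosettes, 240 in the apex and 208 and 210 in inflorescences, and inflorescence against rosette was 0.98 ± 0.30 (n = 2 and 2, edgeR adjusted p = 0.069). Its rosettes differed 1.68-fold, with replicate 1 the higher.

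AGO10 was the steadiest member of the AGO1 clade. It had 89.2 and 81.6 CPM in rosettes, 125 in the apex and 91.5 and 90.6 in inflorescences. The apex was the highest library and the 4 others lay within a narrow band. Inflorescence against rosette was 0.09 ± 0.15 on the log2 scale (n = 2 and 2, edgeR adjusted p = 0.656), and apex against rosette was 0.55 ± 0.18 (n = 1 and 2, edgeR adjusted p = 0.126). Neither difference passed the test. Inflorescence against apex was −0.46 ± 0.18 (edgeR adjusted p = 0.152).

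AGO7 and AGO6 also differed between the 2 rosettes. AGO7 had 401 and 152 reads in rosettes, 355 in the apex and 468 and 493 in inflorescences, or 34.7 and 15.8, 25.5, and 14.7 and 16.2 CPM. Rosette replicate 2 was at the level of the inflorescences and replicate 1 was the highest library. Inflorescence against rosette was −0.71 ± 0.41 (n = 2 and 2, edgeR adjusted p = 0.241). Its value was −1.17 without rosette replicate 2 and −0.03 without replicate 1. AGO6, which acts beside AGO4 in DNA methylation and in *A. thaliana* is known from meristems, had 53 and 10 reads in rosettes, 197 in the apex and 242 and 236 in inflorescences. The apex, at 14.1 CPM, was the highest library, inflorescences were at 7.62 and 7.76 CPM, and rosettes at 4.58 and 1.04 CPM. Apex against rosette was 2.31 ± 0.77 (n = 1 and 2, edgeR adjusted p = 0.137). It was 3.76 without rosette replicate 1 and 1.63 without replicate 2. Inflorescence against rosette was 1.43 ± 0.67 (n = 2 and 2, edgeR adjusted p = 0.169). It was 2.88 without rosette replicate 1 and 0.74 without replicate 2. Neither AGO6 difference passed with all libraries in the fit. Fits without a rosette hold no spread between rosettes, so they cannot decide on calls of AGO6 or AGO7. A ratio of summed counts was 2.59 with a 95% interval of 1.99 to 3.42, which leaves out the spread between the rosettes. AGO6 was 4.42 times and AGO7 2.20 times as high in rosette replicate 1 as in replicate 2, and cell cycle markers were 2.15 times as high.

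AGO8 is regarded as a pseudogene in *A. thaliana*. In *A. lyrata* it had 1 and 1 reads in rosettes, 3 in the apex and 12 and 6 in inflorescences, and it did not pass the low-count filter. The ratio of CPM between inflorescence and rosette was 3.07 with a 95% counting interval of 0.735 to 27.3. No difference was detectable at this depth.

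For the apex against the rosettes, 0 of 8 members passed by edgeR, with 5 at an unadjusted p under 0.05 (AGO4, AGO5, AGO6, AGO9 and AGO10), and 8.14% of all models were called (2.11% as higher and 6.03% as lower). At that unadjusted threshold 31% of all models passed. DESeq2 called 4 members (AGO4, AGO5, AGO9 and AGO10) as higher in the apex, and 18.2% of all models. The count was 7 without rosette replicate 1, 4 without replicate 2 and 6 without TMM, where 41.5%, 31.4% and 25.9% of all models were called. The median of all models was 0.00 with TMM and 0.67 without, and the share of called models that were higher in the apex was 26% with TMM and 83% without. For inflorescence against apex, 2 of 8 members passed, both higher, and 12.7% of all models were called (8.74% as higher and 3.99% as lower). That count was 6 without either of the rosettes, with AGO2 added as higher and AGO6, AGO7 and AGO10 as lower in inflorescences, and 0 without either of the inflorescences. The calls over all models moved with the setting, to 48.1% and 47.7% without rosette replicate 1 or 2 and to 0% without either inflorescence. The share of called models that were higher in inflorescences was 68.7% with TMM and 57.1% without.

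Levels per kilobase of exon allow members to be ordered within a library. By this measure AGO1 ranked first and AGO4 second in all 7 libraries of both species. The order turned in some libraries with other lengths. Per kilobase of coding length, scaled to the plain library total, AGO4 was at 114 and AGO1 at 113 in the apex. In *A. thaliana* rosette replicate 1, AGO10 was at 16.62 and AGO4 at 13.75. Per kilobase of genomic span, AGO10 was above AGO4 in both *A. thaliana* libraries. Per kilobase of exon, AGO1 was at 50.5 and 32.7 CPM (scaled by TMM) in *A. lyrata* rosettes and AGO4 at 41.3 and 24.5, so these neighbours overlapped between libraries, as did AGO4 and AGO10 (25.7 and 23.5). In inflorescences AGO1 (90.5 and 78.4), AGO4 (64.6 and 65.2), AGO9 (36.1 and 32.1) and AGO10 (26.3 and 26.1) followed each other without overlap, then AGO2 (22.2 and 22.4) and AGO5 (20.2 and 21.0). AGO9 therefore went from the eighth rank in rosettes and apex to the third in inflorescences.

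As a share of the summed per-kilobase level of the family, AGO9 made up 0.269% and 0.0667% in rosettes, 1.26% in the apex and 13.5% and 12.7% in inflorescences. Within the AGO4 clade it was 0.916% and 0.272%, then 3.38%, then 34.9% and 32.1%. AGO9 was thus at 0.558 and 0.492 of the AGO4 level in inflorescences. The ratio of AGO5 to AGO10, of the same clade, was 0.112 and 0.107 in rosettes, 0.147 in the apex, and 0.768 and 0.806 in inflorescences. The share of AGO1 was between 31.0% and 34.5% in the 5 *A. lyrata* libraries. These shares need no scaling between libraries, and they have no test.

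**Figure D3:**
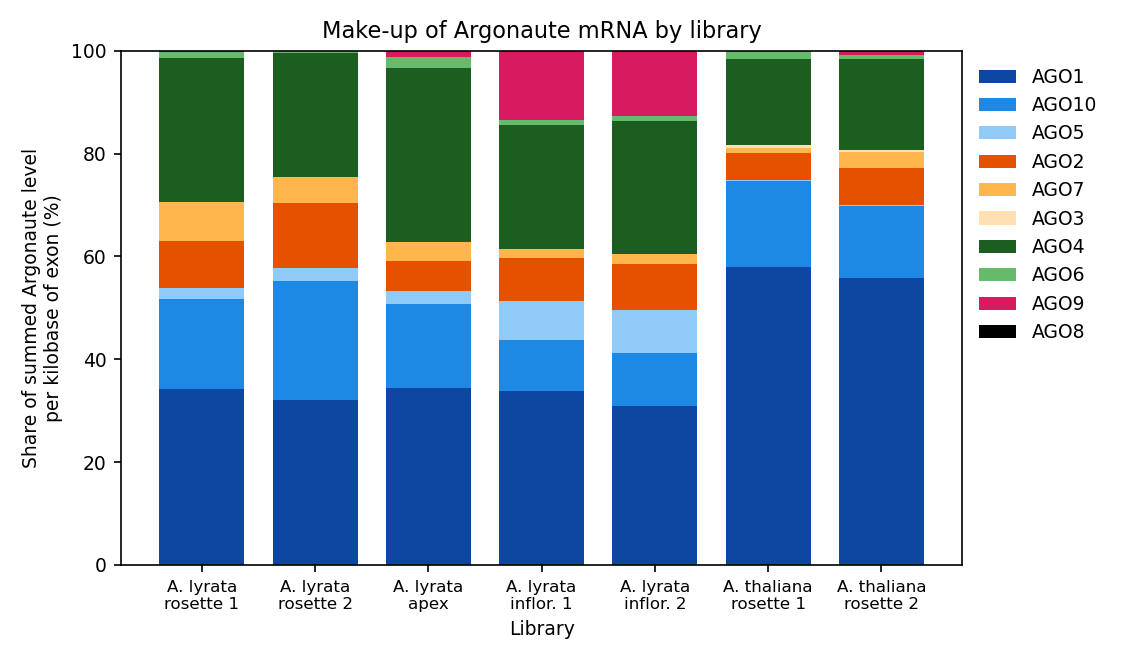
Share (%) of the summed Argonaute level per kilobase of exon taken by each member in each of the 7 libraries (stacked bars, no error, 1 library per bar). AGO9 takes 13.5% and 12.7% in the inflorescences, and AGO1 takes 57.9% and 55.9% in the *A. thaliana* rosettes against 34.3% and 32.1% in those of *A. lyrata*.

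A further comparison set the rosettes of both species side by side. It used 17235 tested pairs of genes with a single listed ortholog, with exonic length as an offset, and species, genome and annotation cannot be told apart in it. Exonic lengths of the 9 members in *A. lyrata* were 0.821 (AGO10) to 1.09 (AGO8) of those in *A. thaliana*. AGO5 was higher in *A. lyrata*, and it was the 1 of 8 tested members that passed, where 9.94% of all pairs were called (6.2% as higher in *A. lyrata* and 3.74% as lower). The median log2 fold change was 0.72 over the 8 members and 0.00 over all pairs. In *A. thaliana*, AGO5 had 3 and 5 reads, or 0.0555 and 0.117 CPM per kilobase (scaled to the plain library total in both species), against 115 and 83 reads, or 2.31 and 1.81, in *A. lyrata*. The species did not overlap, and the *A. thaliana* counts were at or just above the floor of 3 reads. The log2 fold change was 4.43 ± 0.55 (n = 2 and 2, edgeR adjusted p = 0.0169), and the ratio of summed counts, scaled to library totals and length, was 25.1 with a 95% counting interval of 12.5 to 58.9. The call was lost without *A. thaliana* replicate 1 or 2 (adjusted p = 0.0990 and 0.0769, in a range of 1.52e-06 to 0.0990), where 0.506% and 0.841% of all pairs were called.

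**Figure D4:**
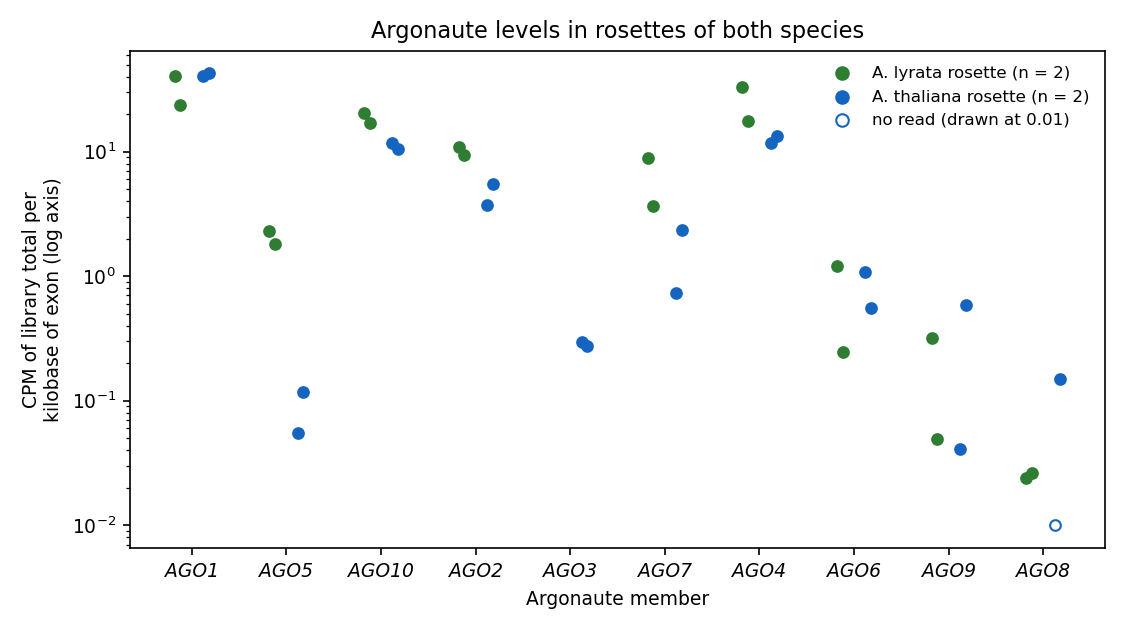
CPM of the plain library total per kilobase of exon (log axis) of the 10 members in the 2 rosette libraries of each species, without TMM. Points are libraries and an open point marks 0 reads. AGO5 lies at 1.81 and 2.31 in *A. lyrata* and at 0.0555 and 0.117 in *A. thaliana*, and AGO3 has values in *A. thaliana* alone.

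AGO2 and AGO7 had higher values in *A. lyrata* rosettes without passing the test. AGO2 was at 10.8 and 9.42 CPM per kilobase in *A. lyrata* and at 3.70 and 5.55 in *A. thaliana*. The libraries did not overlap, and the log2 fold change was 1.00 ± 0.26 (n = 2 and 2, edgeR adjusted p = 0.0783). AGO7 was at 8.93 and 3.66 in *A. lyrata* and at 0.727 and 2.34 in *A. thaliana*, a log2 fold change of 1.91 ± 0.65 (n = 2 and 2, edgeR adjusted p = 0.128). It was 1.26 without *A. lyrata* replicate 1 and 2.35 without replicate 2, and 1.34 and 2.83 without *A. thaliana* replicate 1 and 2. DESeq2 called AGO5, AGO2 and AGO7, and 19.8% of all pairs. AGO4, at 33.1 and 17.7 against 11.7 and 13.5, and AGO10, at 20.6 and 17.0 against 11.7 and 10.6, also lay higher in each *A. lyrata* library, with adjusted p of 0.163 and 0.194 by edgeR. AGO1 was at 40.4 and 23.6 against 40.2 and 42.5, a log2 fold change of −0.54 (edgeR adjusted p = 0.319). AGO1 thus made up 57.9% and 55.9% of the family level in *A. thaliana* rosettes.

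Among the low members of the AGO4 clade, AGO9 had 2 and 23 reads in the *A. thaliana* rosettes and 14 and 2 in those of *A. lyrata*, and the ratio of summed counts was 0.664 with a 95% counting interval of 0.331 to 1.29. By edgeR it was −0.86 ± 1.35 on the log2 scale (n = 2 and 2, adjusted p = 0.700), and 1.82 without *A. thaliana* replicate 2. In *A. thaliana* the higher library, replicate 2, also held more flower marker signal, at 11.5 CPM against 1.19 CPM, with every one of the 5 flower markers detected. Meiosis markers went the other way, at 4.74 CPM in replicate 2 against 17.3 CPM in replicate 1, and so did cell cycle markers. Apex markers were at 6.95 against 5.94 CPM and pollen markers at 0.474 against 0 CPM. The part of these markers in the AGO9 values was not tested. AGO6 was at −0.40 ± 0.85 (edgeR adjusted p = 0.784), and at 0.29 without *A. lyrata* replicate 2 or *A. thaliana* replicate 1. It had 54 and 22 reads in *A. thaliana*, with cell cycle markers at 115 and 45.9 CPM. AGO8 had 0 and 5 reads.

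AGO3, next to AGO2 in the *A. thaliana* genome, had 19 and 14 reads, or 0.295 and 0.275 CPM per kilobase, well below AGO2. In *A. thaliana*, AT1G31290 lies between AT1G31280 (AGO2) and AT1G31300. In *A. lyrata*, the models paired with these neighbours are AL1G48480 and AL1G48460, and between them lies AL1G48470 (scaffold 1, 16802489 to 16806601, minus strand). This model lists no *A. thaliana* ortholog, has 3 exons like AGO2 and a coding length of 3333 bases, against 3585 in AT1G31290. It is not counted as a member and its identity was not tested. AL1G48470 had 10 and 5 reads in rosettes, 26 in the apex and 164 and 192 in inflorescences, or 0.865 and 0.519, 1.87, and 5.16 and 6.32 CPM. Inflorescences stood above all other libraries, by 3.02 ± 0.41 over rosettes on the log2 scale (n = 2 and 2, edgeR adjusted p = 0.00953). With a replicate left out the value was 2.72 to 3.45. It did not pass without inflorescence replicate 1 or 2, where far fewer of all models passed.

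Partners and targets of the Argonautes were read from the same fits. All 33 listed pathway genes had a model. Of 6 genes of miRNA formation and loading, 2 were higher in inflorescences than in rosettes and 0 lower, beside 34.3% of all models called (17.6% higher). HEN1, which methylates small RNAs, had 8.13 and 6.96 CPM in rosettes and 16.4 and 15.5 in inflorescences (1.08 ± 0.19, edgeR adjusted p = 0.0194). SQN, a cyclophilin that promotes AGO1 activity, had 8.82 and 10.6 against 17.9 and 16.0 CPM (0.80 ± 0.20, edgeR adjusted p = 0.0436). Libraries of the tissues did not overlap in either gene. Without inflorescence replicate 1 or 2 neither gene passed by edgeR, in fits where far fewer of all models passed. SQN did not pass by DESeq2 (adjusted p = 0.0590).

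Of 12 genes of RNA-directed DNA methylation, the pathway of AGO4, AGO6 and AGO9, 0 were higher and 1 was lower in inflorescences than in rosettes, beside 16.7% of all models called lower. The lower gene was CLSY1, a chromatin remodeler that helps recruit the polymerase that makes siRNA precursors, with 12.5 and 9.86 CPM in rosettes, 20.1 in the apex, and 2.30 and 4.34 in inflorescences (−1.75 ± 0.39, edgeR adjusted p = 0.0326). It was also lower in inflorescences than in the apex (−2.60 ± 0.44, edgeR adjusted p = 0.0364), as the 1 of 12 called there, beside 12.7% of all models. Against rosettes CLSY1 did not pass without TMM (edgeR adjusted p = 0.0779). With a replicate left out its value was −2.28 to −1.36 against rosettes and −3.19 to −2.27 against the apex. In neither comparison did it pass without inflorescence replicate 1 or 2. In those fits far fewer of all models passed against rosettes, and no model at all passed against the apex. Of 7 genes of secondary siRNA formation, 0 passed between inflorescence and rosette (34.3% of all models), and 1 passed between inflorescence and apex (12.7%). RDR6, the polymerase that makes the precursors of trans-acting siRNAs, was lower in inflorescences than in the apex (−0.88 ± 0.17, edgeR adjusted p = 0.0446). With a replicate left out it was −0.96 to −0.88. Without inflorescence replicate 1 or 2 it did not pass, and neither did any other model in that comparison. The medians of the 3 lists for inflorescence against rosette were 0.52 (miRNA), 0.20 (DNA methylation) and 0.21 (secondary siRNA), beside 0.09 over all models.

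Of the 3 auxin response factors of the AGO7 route (ARF2, ARF3 and ARF4), 0 passed in any tissue comparison, where 34.3% (inflorescence against rosette), 8.14% (apex against rosette) and 12.7% (inflorescence against apex) of all models did. Of the 5 class III HD-ZIP genes that miR165 and miR166 target, CNA was the 1 that passed, in apex against rosette and in inflorescence against apex, beside the same shares. It had 54.4 and 45.8 CPM in rosettes, 137 in the apex, and 59.3 and 57.4 in inflorescences. The apex was high and the 4 other libraries lay together. The log2 fold change was 1.45 ± 0.19 over rosettes (edgeR adjusted p = 0.0339), and −1.23 ± 0.19 for inflorescences over the apex (edgeR adjusted p = 0.0302). With a replicate left out, the value of CNA was 1.33 to 1.58 over rosettes and −1.31 to −1.24 for inflorescences over the apex. Without inflorescence replicate 1 or 2 no model at all passed in these comparisons, so those fits cannot decide on the CNA calls. All 5 of these genes had a positive value in apex against rosette, with a median of 1.45.

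Between species, 3 of the 25 machinery genes passed, all higher in *A. lyrata* rosettes, beside 9.94% of all pairs called (6.2% higher). DCL2, a Dicer that makes siRNAs from viral and other double-stranded RNA, had 1692 and 1117 reads in *A. lyrata* and 365 and 337 in *A. thaliana* (log2 fold change 1.99 ± 0.26, edgeR adjusted p = 0.0195). SGS3, the partner of RDR6, had 728 and 579 against 282 and 188 reads (1.80 ± 0.27, edgeR adjusted p = 0.0266). DMS3, a subunit of the complex that supports siRNA-directed methylation, had 229 and 206 against 123 and 103 reads (2.11 ± 0.28, edgeR adjusted p = 0.0198). No library of one species overlapped the other in these read counts. The DMS3 value rested on the annotated lengths, 1691 bases of exon in *A. lyrata* and 4111 in *A. thaliana*: it was 1.01 with coding length and 1.04 with no length term, and did not pass with either (edgeR adjusted p = 0.0845 and 0.0809, in a range of 4e-06 to 0.110). Without *A. thaliana* replicate 1 or 2 none of the 3 genes passed (edgeR adjusted p of 0.132 and 0.103 for DCL2, 0.103 and 0.115 for SGS3, and 0.110 and 0.0990 for DMS3), and without *A. lyrata* replicate 2 SGS3 and DMS3 did not (0.0607 and 0.0575), in ranges from 9.39e-08 for DCL2 and 2.89e-05 for SGS3. The DCL2 model is annotated as containing a transposable element. The paper states that published miRNA genes were added to the new *A. lyrata* annotation, but the deposited annotation used here does not identify them by name. The 9 *A. thaliana* genes looked up (MIR168a, MIR168b, MIR390a, MIR390b, MIR403, MIR165a, MIR165b, MIR166a and MIR166b) had 0 reads in both rosette libraries, except for 1 read of MIR168a in replicate 2. A count of 0 allows a level of up to 0.188 and 0.237 CPM in the 2 libraries. These are reads of poly-A RNA from the miRNA genes, and levels of the mature miRNAs were not measured.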

How the data were processed

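Single-end reads of poly-A RNA carried no strand, and the authors deposited raw counts of reads per gene model for both species. Submitters' processing notes name FastQC, TopHat and TAIR10 without versions; the counting tool is not given in the sources used here. The 7 deposited columns of scaled values were not used. The deposited annotation fields of other units (identifiers, positions, listed orthologs) were used to find members and lengths. Orthologs are the authors' reciprocal best protein matches. The members, gene lists and tests were chosen with earlier results of these data known.

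Counts were fitted in edgeR 4.0.16 (limma 3.58.1, R 4.3.3) with filterByExpr, TMM, glmQLFit and glmQLFTest: all 5 *A. lyrata* libraries in 1 fit with 1 mean per tissue (25465 of 32793 models tested), and the 4 rosette libraries over 17235 of 21990 single-ortholog pairs with an offset for exonic length. The study states a test for heat stress alone, which needs reads, so a count test was used here. The threshold was a Benjamini-Hochberg adjusted p under 0.05. TMM factors were 0.801 and 0.722 (rosettes), 1.32 (apex) and 1.12 and 1.17 (inflorescences). The biological coefficient of variation was 0.303 and 0.376, with 2 residual degrees of freedom in each fit. Standard errors were derived from the log2 fold change and its F statistic. The fits were tested on simulated data. Counting intervals are exact conditional binomial (95%). Exonic lengths and sequences of *A. thaliana* are from the RefSeq annotation of TAIR10.1 (31434 of 32678 identifiers matched), and no *A. lyrata* genome sequence was used.

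All members are named in each comparison. From each pathway list are named the called genes, at most 2 per direction with the largest change. Alternatives were DESeq2 1.42.0, RLE factors, no TMM, other low-count filters (none, or at least 10 counts in 2 libraries), other samples in the fit, a replicate block, each replicate left out, an adjusted p under 0.01 with a log2 change over 2, and other lengths. Levels and intervals were computed in Python 3.11.15 with pandas 2.3.3 and scipy 1.17.1, and figures were drawn with matplotlib 3.10.9.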

Additional observations from a re-analysis of the deposited data

How the results depend on the processing

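The number of members called in inflorescence against rosette, 3, was 5 by DESeq2 and 6 without TMM, and ranged from 2 to 7 when a replicate was left out. For apex against rosette, 0 became 4 by DESeq2 and 6 without TMM, with 0 to 7 when a replicate was left out. For inflorescence against apex, 2 became 0 with the stricter threshold (2.38% of all models called) and 1 without TMM (12.4%). It became 6 with the libraries of the 2 tissues alone (47.5%) and 1 with the replicate block (5.03%). The share was 12.7% with the settings used above. For the species, 1 became 0 with the stricter threshold (1% of all pairs called) and 0 with the replicate block (3.45%). It became 3 by DESeq2 (19.8%), beside 9.94% with the settings used above. The share of all models called in inflorescence against rosette moved as well, from 34.3% to 35.8% by DESeq2 and 49.8% without TMM. It fell without either inflorescence and rose without either rosette. Member counts and single calls in those fits therefore cannot be read apart from that share. The cause of the changes in member counts was not tested. AGO5 and AGO9 passed in inflorescence against rosette under every alternative run, with an adjusted p of at most 0.0387 and 0.0460.

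Directions that turned belonged to values that had not passed. AGO1 in inflorescence against apex was −0.057 without TMM, and −0.014 to 0.19 with a replicate left out. AGO2 in apex against rosette was 0.024 by DESeq2, 0.024 with RLE factors, 0.041 with the 2 tissues alone and 0.76 without TMM, where it passed (adjusted p = 0.0486), and −0.053 to 0.034 with a replicate left out. AGO7 in apex against rosette was −0.16 with the replicate block, and −0.44 to 0.69 with a replicate left out. Between species, AGO6 ranged from −1.79 to 0.29 and AGO9 from −2.57 to 1.82 with a replicate left out.

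Replicate numbers were shared labels only: deviations of same-numbered libraries correlated at 0.20 between *A. lyrata* rosettes and inflorescences and at −0.20 between the rosettes of the species. With the block, AGO2 in inflorescence against rosette (adjusted p = 0.0506), AGO9 in inflorescence against apex (0.0672) and AGO5 between species (0.0507) no longer passed, nor did CLSY1, CNA and RDR6 in any comparison they were called in, SQN, DCL2, SGS3 or DMS3. The block also lowered the share of all models called. It went from 34.3% to 26.7% in inflorescence against rosette, from 8.14% to 0% in apex against rosette and from 12.7% to 5.03% in inflorescence against apex. Between species it went from 9.94% to 3.45%. In apex against rosette no model could thus keep a call, CNA included. With the numbers crossed, an alternative chosen after seeing the data, 2 members were called between species. Without TMM, the median of all models moved from 0.09 to 0.68, from 0.00 to 0.67 and from 0.08 to −0.13 in the 3 tissue comparisons. The apex had a single library, and members under about 20 reads in rosettes (AGO8, AGO9) were limited by counting error there.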
